A study of Mus musculus with 2 samples.

Results

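Pancreatic polypeptide cells are the endocrine cells of the islet that make pancreatic polypeptide, the product of Ppy. They were taken here as cells in which Ppy made up at least 2% of all unique molecular identifiers (UMIs, each standing for 1 captured RNA molecule) and exceeded Gcg (glucagon), the sum of Ins1 and Ins2 (insulin) and Sst (somatostatin). The rule found 281 such cells among 15692 islet cells, 138 of 8842 in the library from SpopβKO mice and 143 of 6850 in the library from Spop fl/fl mice. The cells were thus chosen by their measured levels of these 5 hormone genes, which are given below as a description only.

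Ppy and its neighbour Pyy (peptide YY) belong to the neuropeptide Y family, small amidated peptides that act on a shared set of G protein-coupled receptors. Pancreatic polypeptide is released after meals, largely under vagal control, and limits pancreatic secretion and food intake. In rodents the cells are scarce, lie at the islet edge and are most frequent in the part of the pancreas that arises from the ventral bud; they share much of their developmental programme with the glucagon-producing alpha cells.

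Both libraries came from 12-week-old female mice on a C57BL/6 background, 1 library per genotype. SpopβKO is labelled as a deletion of Spop limited to beta cells, and Spop fl/fl mice, which carry the floxed alleles alone, were the controls; the Cre driver, the deleted exons and the number of mice pooled are not given in the sources used here. Islets of both groups had recovered for 3 days in RPMI medium with 10 mM glucose before trypsin dispersal, dead-cell removal and 10x Genomics 3′ capture, so every value below is from cultured islets. With 1 library per genotype no test was possible, and every interval below covers counting error at the 95% level only.

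The SpopβKO library held 10033 barcodes with 89977773 UMIs and the Spop fl/fl library 7768 barcodes with 82541585 UMIs. In the SpopβKO library Ppy-leading cells were 1.56% of kept cells (exact binomial interval 1.31% to 1.84%), and in the Spop fl/fl library 2.09% (1.76% to 2.45%). Their depth differed between the libraries, with a median of 11836.5 UMIs (range 1035 to 64937) in SpopβKO and 20266 UMIs (1512 to 85096) in Spop fl/fl. The cells were also deeper than Gcg-leading cells, whose medians were 6381.5 UMIs in SpopβKO and 7967 UMIs in Spop fl/fl. The libraries shared 21 barcodes, and 0 of them were among the Ppy-leading cells. Spop itself had 82.0 CPM (counts per fixed total of UMIs, scaled between cell groups) in SpopβKO and 65.7 CPM in Spop fl/fl Ppy-leading cells, which says nothing about the deletion, since it is labelled as limited to beta cells and a 3′ tag may lie outside the deleted part.

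Ppy and Pyy are neighbours on chromosome 11, with Ppy at chr11:102099930-102101319 and Pyy at chr11:102106676-102107832 (mm10, both on the minus strand), and their transcription starts lie 6513 bases apart. The 250 bases before each start are shown because this pair of genes was high together in these cells. They are given 5′ to 3′ on the transcribed strand from RefSeq (GRCm38.p6), at chr11:102101320-102101569 for Ppy and chr11:102107833-102108082 for Pyy, in lower case with the letters TATAA in capitals.
Ppy: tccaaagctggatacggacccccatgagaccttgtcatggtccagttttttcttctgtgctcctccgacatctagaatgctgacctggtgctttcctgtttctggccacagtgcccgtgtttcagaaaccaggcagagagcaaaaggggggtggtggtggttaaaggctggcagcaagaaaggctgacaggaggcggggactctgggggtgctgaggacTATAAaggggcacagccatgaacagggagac
Pyy: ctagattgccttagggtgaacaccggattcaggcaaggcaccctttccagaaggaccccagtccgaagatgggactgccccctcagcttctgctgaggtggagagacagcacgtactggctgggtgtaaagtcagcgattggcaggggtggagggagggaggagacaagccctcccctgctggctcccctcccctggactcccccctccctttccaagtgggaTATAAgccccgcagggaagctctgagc
Each window held 1 match to TATAA, searched on both strands, beginning 31 bases before the start of Ppy and 27 bases before that of Pyy. The same letters occurred in 22.8% of 32851 upstream windows of this length, so the match is a description of these sequences and no evidence of shared control.

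Ppy made up a median of 11.5% of a cell's UMIs in SpopβKO (quartiles 6.87% and 16.5%, highest 44.2%) and of 11.7% in Spop fl/fl (quartiles 6.83% and 19.1%, highest 54.3%). At the 2% limit the cells just inside held 2.09%, 2.23% and 2.34% Ppy in SpopβKO and 2.04%, 2.05% and 2.11% in Spop fl/fl. The nearest Ppy-leading cells outside it held 1.11%, 1.52% and 1.86% in SpopβKO and 1.63%, 1.93% and 1.97% in Spop fl/fl. The range of Ppy was therefore wide in both libraries, and its middle lay at nearly the same level. Of all cells with Ppy at 2% or more, 246 in SpopβKO and 215 in Spop fl/fl, 66 and 49 were led by Gcg, 38 and 21 by insulin and 4 and 2 by Sst.

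**Figure D1:**
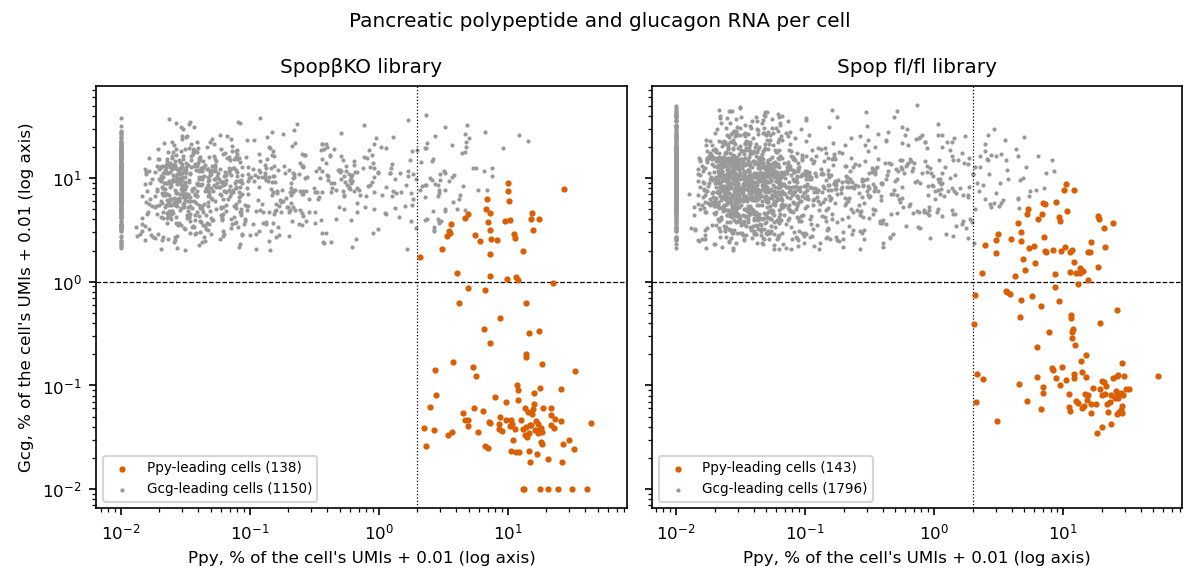
Ppy against Gcg as percentages of each cell's UMIs (log axes, 0.01 added), with 138 Ppy-leading cells (orange) and 1150 Gcg-leading cells (grey) of the SpopβKO library on the left and 143 and 1796 of the Spop fl/fl library on the right. The dotted line marks 2% Ppy and the dashed line 1% Gcg; the orange cells spread from near 0% to 8.91% Gcg in SpopβKO, and 36 of them in SpopβKO and 53 in Spop fl/fl lie on or above the dashed line.

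The label was checked on the marker genes that the rule did not use. Pyy, which encodes the related peptide YY, was at 24611 CPM in Ppy-leading and 3187 CPM in Gcg-leading cells of SpopβKO, and at 26672 CPM and 2461 CPM in Spop fl/fl. Tspan8, which encodes a tetraspanin of the cell surface, was at 351 CPM in Ppy-leading and 21.9 CPM in Gcg-leading cells of SpopβKO, and at 269 CPM and 18.8 CPM in Spop fl/fl. Both genes thus stood higher in the Ppy-leading cells of each library. After each cell was thinned to 2000 UMIs, Pyy was detected in 96.2% of Ppy-leading cells of SpopβKO and 97.2% of Spop fl/fl, against 13.3% and 1.61% of cells with mesenchymal or endothelial RNA, which should lack it. Tspan8 was detected in 39.4% and 39.0% of the thinned Ppy-leading cells and in 2.04% and 3.23% of the mesenchymal or endothelial ones. Among thinned Gcg-leading cells Pyy was detected in 62.1% in SpopβKO and 57.8% in Spop fl/fl, and Tspan8 in 3.66% and 2.65%. Among thinned insulin-leading cells Pyy was detected in 32.5% and 18.7%, and Tspan8 in 7.52% and 0.716%. Detection of Pyy thus separated Ppy-leading cells less from Gcg-leading than from mesenchymal or endothelial ones. Sst-leading cells, of which there were only 10 in SpopβKO and 6 in Spop fl/fl, also held these markers. Their median Pyy share was 3.48% of UMIs in SpopβKO and 0.284% in Spop fl/fl, beside 1.87% and 1.60% in Ppy-leading cells, and their median Tspan8 share was 0.0197% and 0.0040%, beside 0.0246% and 0.0165%. In SpopβKO, Pyy and Tspan8 therefore did not set Ppy-leading cells apart from Sst-leading ones. Vsig1, the remaining marker and an immunoglobulin-family membrane protein, gave 5 UMIs in SpopβKO and 3 UMIs in Spop fl/fl over all Ppy-leading cells, too few to bear on the label. Ghrl, the ghrelin gene of epsilon cells, had 0 UMIs in the Ppy-leading cells of either library.

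The share of Ppy-leading cells with Gcg depended on how much Gcg was asked for. Some Gcg was found in almost all of them, in 131 of 138 cells of SpopβKO and 143 of 143 of Spop fl/fl. At 2000 UMIs per cell the share was 65.9% of 132 cells in SpopβKO (57.2% to 73.9%) and 83.0% of 141 cells in Spop fl/fl (75.7% to 88.8%), 6 and 2 cells being too shallow. Insulin-leading cells gave 60.7% in SpopβKO and 84.0% in Spop fl/fl, and mesenchymal or endothelial cells 48.0% and 79.0%. Cells that should lack the gene thus gave a large share with a Gcg UMI in both libraries. In Spop fl/fl the interval of the Ppy-leading share included both of theirs. In SpopβKO it included the share of insulin-leading cells. The share of mesenchymal or endothelial cells of SpopβKO lay below it, but the intervals overlapped (37.8% to 58.3% for these cells). A single Gcg UMI is therefore not read as expression, and the level of Gcg was used instead.

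At a Gcg level of 1% of UMIs or more, Ppy-leading cells stood above that background. In SpopβKO 36 of 138 Ppy-leading cells reached it (26.1%, 19.0% to 34.2%) and in Spop fl/fl 53 of 143 (37.1%, 29.1% to 45.5%). Among insulin-leading cells 6.19% of SpopβKO and 8.71% of Spop fl/fl reached it, and among mesenchymal or endothelial cells 0 of 98 and 1 of 65. The 2 intervals of the Ppy-leading cells overlapped between the libraries. A Gcg level of 5% or more was reached by 5 cells of SpopβKO and 7 of Spop fl/fl. For insulin the background was higher: 63 of 138 Ppy-leading cells of SpopβKO and 37 of 143 of Spop fl/fl had Ins1 and Ins2 at 1% or more, and so did 25.5% of mesenchymal or endothelial cells of SpopβKO and 3.08% of Spop fl/fl.

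Against the Gcg-leading cells of their own library, Ppy-leading cells had more Pyy, Tspan8 and Folr1 RNA and less Ttr, Irx1 and Irx2 RNA. Counts were pooled within each kind of cell and scaled to CPM, and a gene was counted where the sums differed at least 2-fold, with an interval excluding no difference, in the same direction in both libraries. By this rule 17 of 5210 measured genes were higher (0.326%) and 24 were lower (0.461%). In SpopβKO by itself 21 genes (0.403%) were higher and 30 (0.576%) lower, and in Spop fl/fl 33 (0.633%) and 42 (0.806%). Ppy and Gcg are among them by construction, Ppy at a log2 ratio of 5.48 in SpopβKO and 5.92 in Spop fl/fl and Gcg at -3.52 and -2.98. The 2 libraries differ in genotype and are set side by side, not used as replicates.

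Genes for membrane and secreted proteins stood first among the higher ones. Tspan8 had a log2 ratio of 4.0 in SpopβKO (3.78 to 4.23) and 3.84 in Spop fl/fl (3.66 to 4.03), and Pyy of 2.95 (2.93 to 2.97) and 3.44 (3.42 to 3.45). Folr1, the folate receptor alpha, was at 77.9 CPM in Ppy-leading and 7.88 CPM in Gcg-leading cells of SpopβKO, and at 86.7 CPM and 5.72 CPM in Spop fl/fl. Fxyd3, a regulator of the sodium pump, was at 53.5 CPM against 8.92 CPM in SpopβKO and 76.5 CPM against 7.38 CPM in Spop fl/fl. These 4 genes were also higher than in insulin-leading cells of both libraries, so they set Ppy-leading cells apart from both larger populations. Cd9, another tetraspanin, had log2 ratios over Gcg-leading cells of 1.82 in SpopβKO and 2.12 in Spop fl/fl.

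Spp1, which encodes the secreted phosphoprotein osteopontin, differed between the libraries in the size of its ratio, 1.25 in SpopβKO (1.16 to 1.35) against 3.13 in Spop fl/fl (3.04 to 3.22). Its level in Ppy-leading cells was similar, at 701 CPM in SpopβKO and 796 CPM in Spop fl/fl, whereas in Gcg-leading cells it was 294 CPM in SpopβKO and 91.1 CPM in Spop fl/fl. Spp1 is on the list of ductal markers, and the defining ductal genes Krt19 and Sox9 had 9 and 1 UMIs in Ppy-leading cells of SpopβKO and 0 and 5 UMIs in those of Spop fl/fl.

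The rest of the higher genes had log2 ratios between 1.16 and 1.85 in each library among those named. They were Crip1 (a LIM-domain protein), Gstm1 (a glutathione transferase), Fkbp11 (a prolyl isomerase of the secretory pathway), Tesc (a calcium-binding protein), Hadh (an enzyme of mitochondrial fatty acid oxidation), Nkx6-1 (a homeodomain factor of beta cells) and Rap1gap (an inhibitor of the GTPase Rap1). Nkx6-1 was at 118 CPM in Ppy-leading and 52.3 CPM in Gcg-leading cells of SpopβKO and at 119 CPM and 47.4 CPM in Spop fl/fl, and insulin-leading cells held 215 CPM and 150 CPM. Nkx6-1 in Ppy-leading cells thus lay between the other cell kinds. Of the 17 higher genes 16 could be measured against insulin-leading cells as well, where 10 were at least 2-fold higher in both libraries and 1, Hadh, was lower. Over all genes, 61 of 5265 (1.16%) were higher and 53 (1.01%) lower in that comparison. With cells of 8000 to 30000 UMIs alone, which narrowed the range of depth without matching it, 10 of the 17 genes kept their call. Gstm1, Fkbp11, Hadh and Nkx6-1 had log2 ratios of 0.99, 0.90, 0.86 and 0.87 in SpopβKO, and Tesc had 0.92 in Spop fl/fl. Fxyd3, at 2.21 and 3.27, no longer reached the mean of 25 CPM. With each cell weighted equally Rap1gap was at 0.90 in SpopβKO, short of the limit. Ogfod3, Rflna and Stxbp6 complete the 17 genes.

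**Figure D2:**
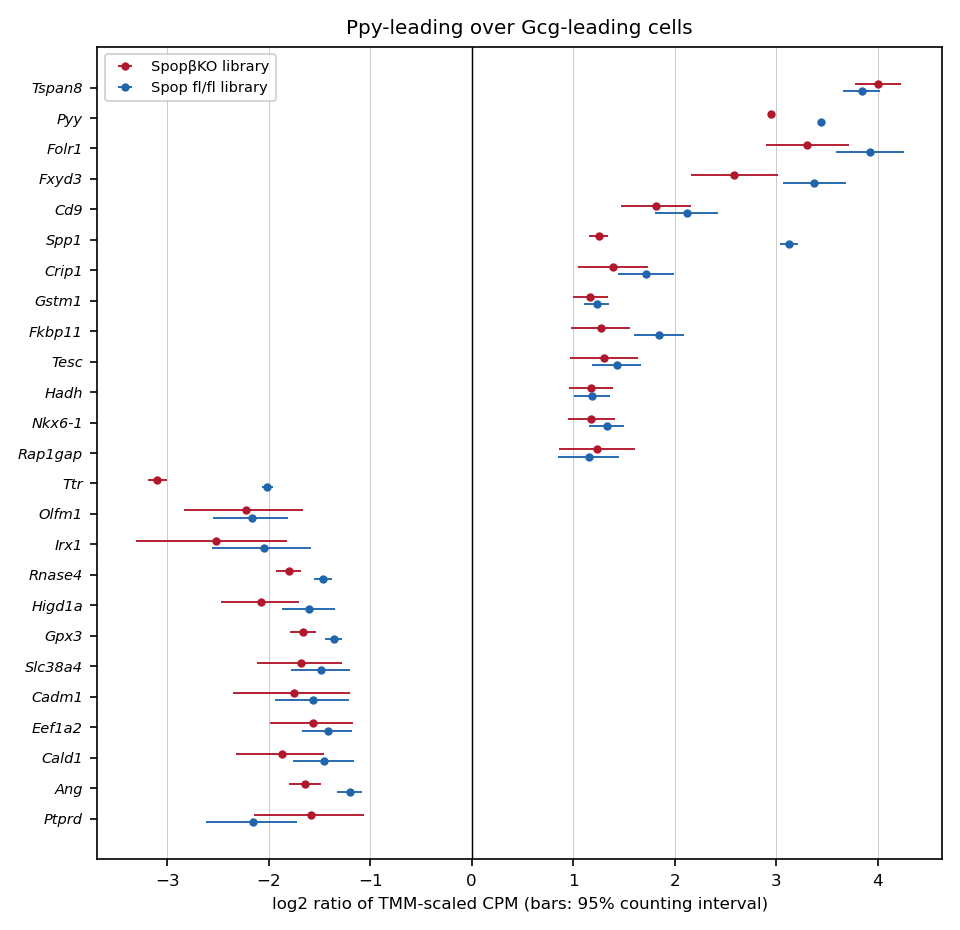
Log2 ratio of Ppy-leading over Gcg-leading cells for named genes other than Ppy and Gcg, in the SpopβKO library (red) and the Spop fl/fl library (blue), with 95% counting intervals as bars. Tspan8, Folr1 and Pyy lie farthest to the right, Ttr, Irx1 and Olfm1 lie toward the left end, and Spp1 is the gene among the higher ones whose values in the libraries lie farthest apart.

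The lower genes included transcription factors of alpha cells. Irx1, an Iroquois homeobox factor, was at 8.83 CPM in Ppy-leading and 50.5 CPM in Gcg-leading cells of SpopβKO, and at 11.7 CPM and 48.5 CPM in Spop fl/fl. Its relative Irx2 was at 23.4 CPM against 80.0 CPM in SpopβKO and 30.8 CPM against 78.1 CPM in Spop fl/fl. Both Iroquois genes were thus at least 2-fold lower in the Ppy-leading cells of each library.

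Over the alpha identity list, 9 of 11 genes were measured, and without Gcg 4 of 8 were lower and 0 higher, with median log2 ratios of -1.31 in SpopβKO and -1.21 in Spop fl/fl, beside 0.01 and 0.02 over all measured genes. Beside Irx1 and Irx2, the lower genes of this list included Ttr, the carrier of thyroid hormone and retinol, at 505 CPM against 4322 CPM in SpopβKO and 991 CPM against 3998 CPM in Spop fl/fl. Gc, the vitamin D binding protein, was at 230 CPM in Ppy-leading and 236 CPM in Gcg-leading cells of SpopβKO and at 214 CPM and 188 CPM in Spop fl/fl. The list therefore split, with Gc and the chromatin remodeller Smarca1 near or above the level of Gcg-leading cells.

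The other lower genes named here have differing roles. Gpx3, a secreted glutathione peroxidase, had log2 ratios of -1.66 in SpopβKO and -1.36 in Spop fl/fl, and the secreted glycoprotein Olfm1 of -2.22 and -2.16. Higd1a, a mitochondrial protein induced by low oxygen, had -2.07 and -1.60, and the amino acid carrier Slc38a4 -1.68 and -1.48. The ribonucleases Rnase4 and Ang were lower too, at -1.80 and -1.64 in SpopβKO and -1.47 and -1.20 in Spop fl/fl, but their annotated spans overlap on the same strand and their counts may not be independent. The other named genes were Cadm1 and Ptprd (cell adhesion), Eef1a2 (translation elongation) and Cald1 (an actin regulator), with ratios between -2.15 and -1.42.

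**Figure D3:**
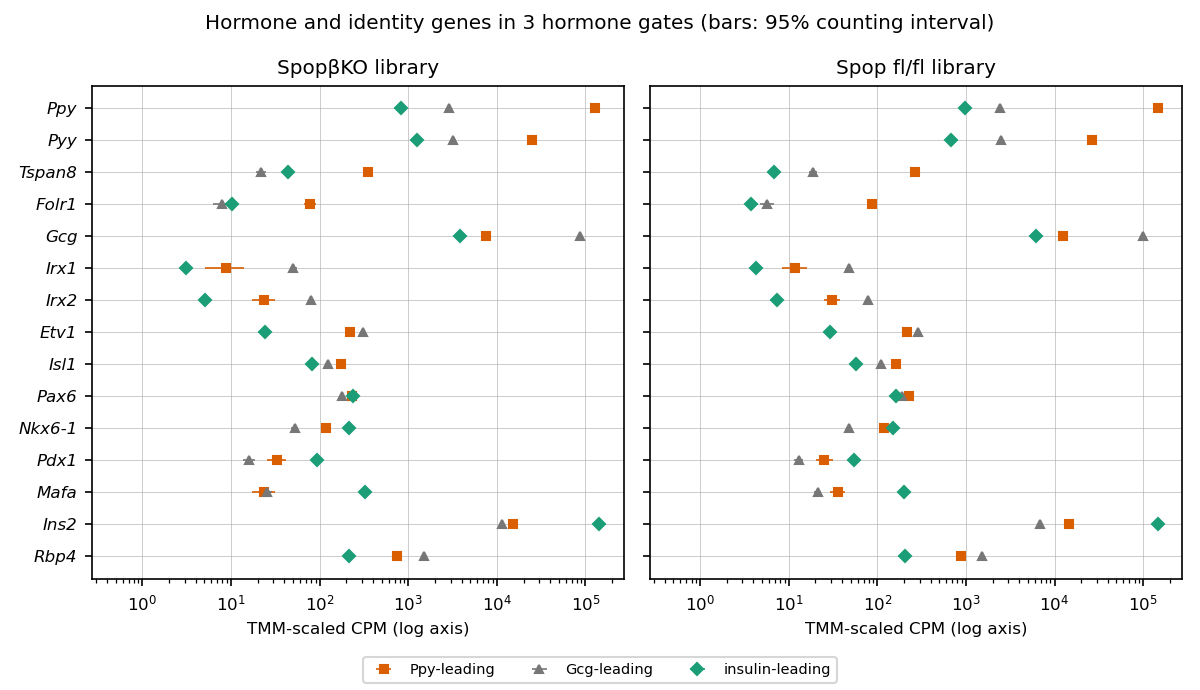
TMM-scaled CPM (log axis) of hormone and identity genes in Ppy-leading (orange squares), Gcg-leading (grey triangles) and insulin-leading cells (green diamonds) of the SpopβKO library (left) and the Spop fl/fl library (right), with 95% counting intervals as bars. Etv1 of Ppy-leading cells lies near Gcg-leading cells and far above insulin-leading ones, and Nkx6-1 and Pdx1 lie between the other cell kinds.

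Most gene lists outside hormones and alpha identity had no gene past the 2-fold limit in both libraries. Genes past it in 1 library alone are not counted as called here. Among genes described in human pancreatic polypeptide cells, 4 of 9 were measured and 0 were called, with a median log2 ratio of 0.56 in each library. Meis2, Id2 and Entpd2, 3 of the 4, were above 0 in both libraries, and only Etv1 was below 0 in both. Etv1, an ETS factor on that list, was at 223 CPM in Ppy-leading and 306 CPM in Gcg-leading cells of SpopβKO and at 217 CPM and 285 CPM in Spop fl/fl, against 24.1 CPM and 29.6 CPM in insulin-leading cells. Of 8 measured pan-endocrine transcription factors 0 were called, with Isl1 at log2 ratios of 0.49 and 0.56 and Pax6 at 0.37 and 0.25. Receptors and processing enzymes of the neuropeptide Y family had 0 of 7 genes measured. Of 19 measured endoplasmic reticulum chaperones and related genes 0 were called, and 14 were above 0 in both libraries. Their medians were 0.23 in SpopβKO and 0.29 in Spop fl/fl. Over all 5210 measured genes, 1985 were above 0 and 1770 below 0 in both libraries. Fkbp2, a prolyl isomerase, was at 0.59 and 0.86. Of 8 measured p53 targets 0 were called and 6 were below 0 in both libraries, with medians of -0.59 and -0.74; the cell cycle inhibitor Cdkn1a was at -0.58 and -0.73. Granule and prohormone-processing genes had 0 of 14 called, with Scg2 (secretogranin II) at 0.70 and 0.68 and Cpe (carboxypeptidase E) at -0.52 in both libraries. Integrated stress response, heat shock, immediate early, CUL3 ligase and islet receptor genes had 0 called of 17, 6, 6, 5 and 1 measured. Of 10 measured exocytosis genes and 8 measured ion channel genes 0 were called, with medians of 0.12 and 0.08 in SpopβKO and 0.20 and 0.17 in Spop fl/fl.

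Ppy-leading cells varied among themselves with their Gcg content. In SpopβKO 36 cells had Gcg at 1% of UMIs or more and 84 had less than 0.1%, and in Spop fl/fl these were 53 and 48 cells. Cells with at least 1% Gcg had less Ppy, with medians of 7.37% against 13.8% in SpopβKO and 8.75% against 19.6% in Spop fl/fl, and less Pyy, with 0.994% against 2.49% and 1.08% against 2.63%. Shares of 1 total must trade off, so the lower Ppy share is in part fixed by how the cells were split. The median UMI count of cells with at least 1% Gcg was 8805 against 12679.5 in SpopβKO and 23729 against 21041.5 in Spop fl/fl.

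Irx1 and Irx2, which the split did not use, were higher in the Ppy-leading cells with Gcg. Irx1 was at 37.3 CPM in cells with at least 1% Gcg and 0.805 CPM in those under 0.1% in SpopβKO, from 14 and 1 UMIs, and at 25.3 CPM and 1.85 CPM in Spop fl/fl, from 31 and 2 UMIs. Irx2 was at 56.0 CPM and 14.5 CPM in SpopβKO and at 47.4 CPM and 13.9 CPM in Spop fl/fl. In each case the cells with Gcg approached, but stayed below, the Gcg-leading cells. Ttr showed the same order, at 933 CPM and 391 CPM in SpopβKO and 1825 CPM and 417 CPM in Spop fl/fl.

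Gc did not follow Gcg in this way. Cells with at least 1% Gcg over those under 0.1% had log2 ratios of Gc of -0.08 (-0.45 to 0.28) in SpopβKO and 0.08 (-0.17 to 0.34) in Spop fl/fl. Tspan8 was lower in the cells with Gcg, at 245 CPM against 391 CPM in SpopβKO and 217 CPM against 316 CPM in Spop fl/fl, and in both subsets far above Gcg-leading cells. Droplets that captured 2 cells were not removed. Of Ppy-leading cells with at least 1% Gcg, 2.78% in SpopβKO and 15.1% in Spop fl/fl had doublet scores among the highest, taken at the expected doublet rate, against 22.6% and 20.8% of those under 0.1% Gcg and 8.44% and 7.27% of all kept cells. The share was 15.2% and 18.2% over all Ppy-leading cells, and 27.0% and 29.7% over those with Ins1 and Ins2 at 1% or more. The scoring called 0 cells as doublets where 8.03% and 6.21% were expected, so these shares are a description only.

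**Figure D4:**
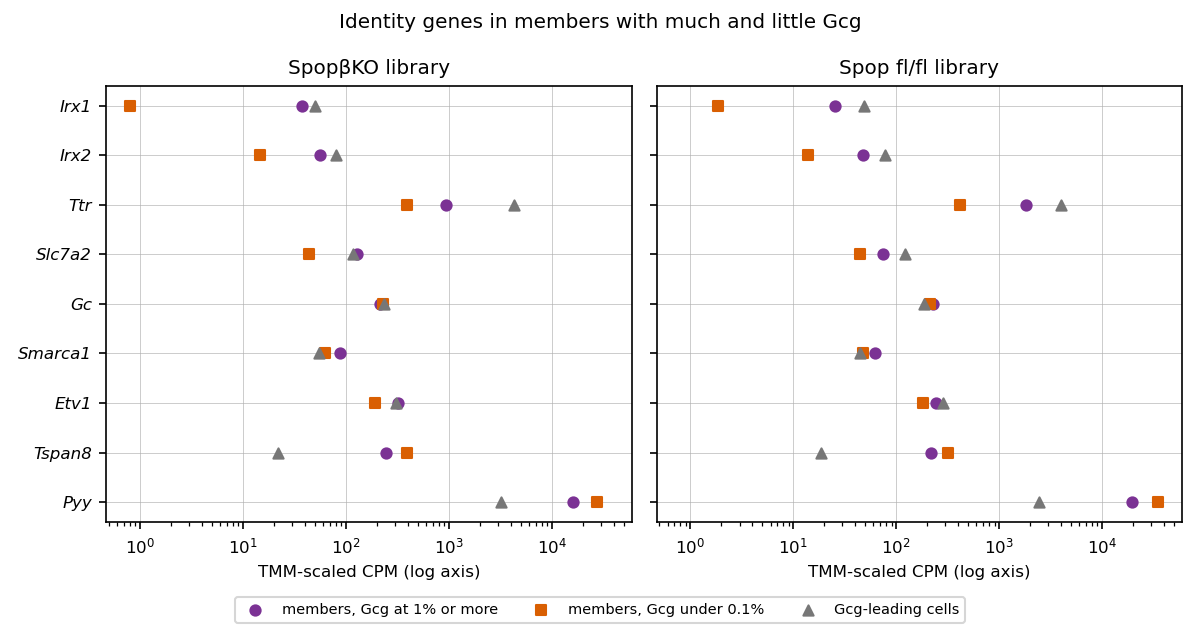
TMM-scaled CPM (log axis) in Ppy-leading cells with Gcg at 1% of UMIs or more (purple circles), Ppy-leading cells with Gcg under 0.1% (orange squares) and Gcg-leading cells (grey triangles), for the SpopβKO library (left) and the Spop fl/fl library (right). Irx1 and Irx2 of the purple cells lie toward the grey ones, whereas Gc and Smarca1 of both subsets lie close together.

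Across single cells, Ppy and Pyy percentages had a Spearman correlation of 0.38 over 138 cells of SpopβKO and 0.45 over 143 of Spop fl/fl, and Pyy and Gcg percentages of -0.45 and -0.41. These are descriptions, since all cells of a library share its free RNA and the percentages share a total.

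A part of the cells also lay near one another in genes other than the hormones. In a neighbour map built per library without Ppy, Pyy, Gcg, Ins1, Ins2, Sst and Iapp, 44 of 138 Ppy-leading cells of SpopβKO (31.9%) and 59 of 143 of Spop fl/fl (41.3%) had a majority of Ppy-leading cells among their 15 nearest cells. Among cells with no other hormone at 1%, these shares were 52.9% of 51 cells and 67.8% of 59 cells. Over all Ppy-leading cells, a mean of 36.0% of neighbours in SpopβKO and 45.2% in Spop fl/fl were Ppy-leading. Gcg-leading cells made up 25.4% and 26.5% of the neighbours, and insulin-leading cells 30.7% and 20.3%. Ppy-leading cells were 1.56% and 2.09% of kept cells. Of the neighbours of Ppy-leading cells with at least 1% Gcg, a mean of 59.6% in SpopβKO and 48.8% in Spop fl/fl were Gcg-leading. Of the neighbours of those under 0.1% Gcg, 9.76% and 6.81% were. Ppy-leading cells with Gcg thus had a larger mean share of Gcg-leading neighbours, in a map that did not use Gcg.

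Between genotypes, Ppy-leading cells of SpopβKO had more Enpp2, Chgb and B2m RNA and less mitochondrial, Ttr and Atf3 RNA than those of Spop fl/fl, while Ppy, Pyy and Tspan8 differed by less than 1.5-fold. A gene was counted at a 1.5-fold difference with an interval excluding no difference, which 91 of 5415 measured genes passed as higher (1.68%) and 105 as lower (1.94%). Ppy had a log2 ratio of SpopβKO over Spop fl/fl of -0.20 (-0.21 to -0.19), Pyy of -0.12 (-0.13 to -0.10) and Tspan8 of 0.38 (0.24 to 0.53). Tspan8 passed as higher in 2 alternatives, at 0.64 with each cell weighted equally and 0.66 among cells of 8000 to 30000 UMIs. Without TMM scaling 60.5% of the counted genes were higher, beside 46.4% with it. These differences rest on 1 library each, and genotype and library cannot be told apart. The 2 groups of cells also differed in depth and in their share with Gcg, whose part in the gene differences was not tested.

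Among the higher genes, several differed in the same direction in Gcg- and insulin-leading cells. Enpp2, which encodes autotaxin, a secreted lysophospholipase D, was at 110 CPM in SpopβKO and 38.9 CPM in Spop fl/fl Ppy-leading cells, with a log2 ratio of 1.5 (1.18 to 1.83), beside 1.67 in Gcg-leading and 3.28 in insulin-leading cells. In insulin-leading cells its level was 521 CPM in SpopβKO and 53.6 CPM in Spop fl/fl, and the part of free RNA from those cells in the difference was not tested. Chgb (chromogranin B, a granule protein) was at 1288 CPM in SpopβKO and 618 CPM in Spop fl/fl, with ratios of 1.06 in Ppy-leading, 0.98 in Gcg-leading and 2.26 in insulin-leading cells. Socs2, an inhibitor of cytokine receptor signalling, had ratios of 1.10, 1.04 and 2.07 in the same order of cells. B2m, the light chain of MHC class I, was at 214 CPM in SpopβKO and 124 CPM in Spop fl/fl, with ratios of 0.79, 0.97 and 1.02. The pseudogene Gm10076 had a ratio of 0.82 in Ppy-leading cells, but it resembles other genomic copies and its count is uncertain.

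Other higher genes had smaller ratios in Gcg-leading cells. Gadd45g, a stress-inducible growth arrest gene, was at 78.4 CPM in SpopβKO and 34.9 CPM in Spop fl/fl, a ratio of 1.17 in Ppy-leading beside 0.15 in Gcg-leading cells. Malat1, a nuclear long noncoding RNA, had 0.76 beside -0.07, and Mak16, a ribosome biogenesis factor, 0.94 beside 0.32. Whether these ratios differ between cell kinds was not tested. Cela1, an elastase on the acinar list, had a ratio of 1.31 from 75 UMIs in SpopβKO and 51 in Spop fl/fl, and the other 5 acinar markers had between 0 and 3 UMIs each in either library. In Ppy-leading cells with no other hormone at 1%, the ratios of Chgb, Gadd45g, Cela1, Socs2 and B2m were 0.58, 0.47, 0.59, 0.52 and 0.46, which ended their calls; at 8000 to 30000 UMIs those of Malat1 and Socs2 were 0.42 and 0.62 and ended too.

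Among the lower genes were 4 encoded by the mitochondrial genome. mt-Nd3, mt-Cytb, mt-Nd2 and mt-Atp6, parts of respiratory complexes and the ATP synthase, had log2 ratios of -0.87, -0.69, -0.66 and -0.63 in Ppy-leading cells. Without TMM scaling mt-Atp6 was at -0.58, which ended its call. Gcg-leading cells had -0.81, -0.79, -0.85 and -0.75, and insulin-leading cells 0.17, 0.30, 0.18 and 0.30. The median share of mitochondrial UMIs per Ppy-leading cell was 2.01% in SpopβKO and 3.19% in Spop fl/fl. Gm42418, an annotated RNA that overlaps ribosomal RNA sequence, was at -0.87 in Ppy-leading, -1.26 in Gcg-leading and -1.52 in insulin-leading cells.

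Of the remaining lower genes, Ttr was at 505 CPM in SpopβKO and 991 CPM in Spop fl/fl (-0.97), but at -0.20 in cells with no other hormone at 1% and -0.55 with each cell weighted equally, both short of the limit. Atf3, a stress-induced transcription factor, was at 24.4 CPM in SpopβKO and 53.7 CPM in Spop fl/fl, with ratios of -1.14 in Ppy-leading, -0.21 in Gcg-leading and -1.16 in insulin-leading cells. Tuba1b, an alpha tubulin, Cox6a2, a subunit of cytochrome oxidase, and Kcnh2, a potassium channel, had -0.92, -0.83 and -1.08 in Ppy-leading cells, and -0.36, -0.06 and -0.12 in Gcg-leading ones. Atf3 was at -0.58 where Ppy had to be 3 times each other hormone, and Tuba1b at -0.58 with equal weights. Cox6a2 was at -0.53 among cells of 8000 to 30000 UMIs. Each of these settings ended the call of its gene.

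**Figure D5:**
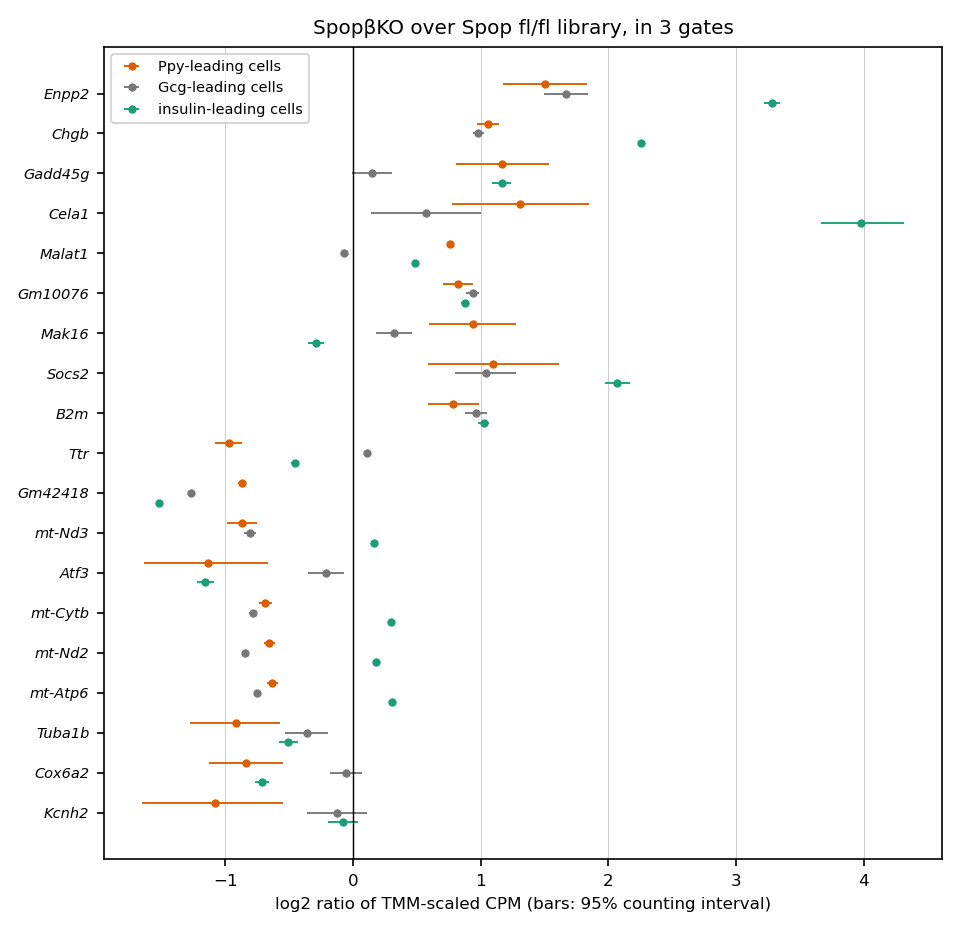
Log2 ratio of the SpopβKO over the Spop fl/fl library for named genes in Ppy-leading (orange), Gcg-leading (grey) and insulin-leading cells (green), with 95% counting intervals as bars. The mitochondrial genes lie left of 0 in Ppy- and Gcg-leading cells and right of 0 in insulin-leading cells, and Enpp2 lies right of 0 in all 3.

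By list, 14 of 17 measured genes of the integrated stress response were below 0 in SpopβKO over Spop fl/fl. In this response phosphorylation of eIF2alpha slows translation and the factor ATF4 is made. The median of the list was -0.38 beside -0.00 over all genes. Over all 5415 measured genes, 2730 were below 0 and 2685 above 0, and 1.94% were counted as lower and 1.68% as higher. Of the 17 stress response genes, 2 were lower by the 1.5-fold rule, Atf3 and Chac1 (a glutathione-degrading enzyme, -0.83), and 0 were higher. Atf4 itself was at 301 CPM in SpopβKO and 401 CPM in Spop fl/fl (-0.41), and Ddit3, the factor CHOP, at 781 CPM and 785 CPM. All 5 measured genes of the interferon and antigen presentation list were above 0, with a median of 0.59, and 3 passed as higher, B2m, H2-D1 and Psmb8 (both 0.59, class I antigen and a proteasome subunit that trims its peptides). Of 15 measured granule genes 3 were higher and 0 lower, the others beside Chgb being Chga at 0.63 and the prohormone convertase Pcsk1 at 0.63. Of 19 measured endoplasmic reticulum chaperones and related genes 0 were called, with a median of 0.07 and Hspa5, the chaperone BiP, at 0.07 (0.01 to 0.14). Heat shock genes had 0 of 6 called with a median of -0.12, and p53 targets 1 of 8, Gadd45a at -0.76. Of 8 measured ion channel genes 1 was lower, the potassium channel Kcnk3 at -0.64, and of 7 immediate early genes 1 was higher, Fos at 0.60. Pan-endocrine factors, exocytosis genes, genes described in human pancreatic polypeptide cells, the CUL3 ligase genes that include Spop, delta markers and islet receptors had 0 called of 8, 10, 4, 5, 2 and 2 measured. In cells with no other hormone at 1%, Chac1 was at -0.54, H2-D1 at 0.48, Psmb8 at 0.29 and Chga at 0.47, which ended these calls. Pcsk1 at 0.27, Kcnk3 at -0.42 and Fos at 0.11 lost theirs there too. Gadd45a was at -0.47 where Ppy had to be 3 times each other hormone, which ended its call. Other named genes gained a call. Among cells of 8000 to 30000 UMIs, Nupr1 (1.14) passed as higher and Shmt2 (-0.61) as lower on the stress response list. In the same cells Sdf2l1 of the chaperone list passed as higher (0.73) and Fev of the pan-endocrine list as lower (-0.85). With no other hormone at 1%, the p53 target Phlda3 passed as higher (0.74).

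Of the insulin genes, Ins1 passed the 1.5-fold rule in Ppy-leading cells and Ins2 did not. Ins1 was at 2307 CPM in SpopβKO and 858 CPM in Spop fl/fl (log2 ratio 1.43), beside 2.02 in Gcg-leading and 1.52 in insulin-leading cells. Ins2 was at 15366 CPM and 14431 CPM (0.09), but passed as higher where Ppy had to be 3 times each other hormone (0.86), with no other hormone at 1% (0.75) and among cells of 8000 to 30000 UMIs (0.89). Ins1 was also higher in SpopβKO in cells that should lack insulin. The median Ins1 share of UMIs was 0.183% in SpopβKO and 0.0279% in Spop fl/fl Ppy-leading cells, and 0.153% and 0.0173% in mesenchymal or endothelial cells. The call on Ins1 is therefore not read as a level of expression in Ppy-leading cells. The median Ins2 share was 0.709% in SpopβKO and 0.192% in Spop fl/fl Ppy-leading cells, and 0.524% and 0.171% in mesenchymal or endothelial cells. The calls on Ins2 under the alternatives are not read as a level of expression either. Mafa, a beta-cell factor, was at 23.4 CPM in SpopβKO and 35.8 CPM in Spop fl/fl, against 321 CPM and 201 CPM in insulin-leading cells. Mafa passed as lower by the 1.5-fold rule. It fell short at a 5% Ppy limit (-0.41), where Ppy had to be 3 times each other hormone (-0.57), without TMM scaling (-0.56) and with equal weights (-0.31). With no other hormone at 1% it was at -1.70 but lost its call too. Gcg also passed as lower, but was at -0.31 with equal weights, short of the limit.

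Markers of mesenchymal, endothelial, macrophage, lymphoid and glial cells were low in the Ppy-leading cells. Summed over their lists, mesenchymal markers reached 2.08 CPM in SpopβKO and 3.70 CPM in Spop fl/fl, with 2 of 5 genes at 0 in both libraries, and endothelial markers 2.08 CPM and 0 CPM, with 3 of 5 at 0 in both. Macrophage markers summed to 20.8 CPM and 9.56 CPM, lymphoid markers to 5.19 CPM and 2.78 CPM and glial markers to 7.79 CPM and 11.7 CPM. The ductal list, which holds Spp1, was not low, with a sum of 861 CPM in SpopβKO and 999 CPM in Spop fl/fl. In Gcg-leading cells it summed to 445 CPM and 214 CPM, and in insulin-leading cells to 418 CPM and 241 CPM. The beta identity list, which holds insulin, summed to 22128 CPM in SpopβKO and 19471 CPM in Spop fl/fl, against 214047 CPM and 177756 CPM in insulin-leading cells. The delta list summed to 1028 CPM and 1200 CPM, of which Rbp4, also found in Gcg-leading cells, gave 754 CPM and 876 CPM.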

How the data were processed

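Single-cell RNA of mouse islets was measured with 10x Genomics 3′ v3.1 chemistry in 1 library per genotype. The authors deposited unnormalized counts of UMIs for 32285 features in every barcode. Per the file headers, Cell Ranger 6.0.0 made them; per the submitters' processing notes the build was mm10, and R 4.1.1 and Seurat 4.1.0 were used. Cells with at least 500 genes and at most 15% mt- UMIs were kept, and hormone gates were set at 2% of UMIs. Counts were summed over each of 4 gates in 2 libraries, and the 8 sums were scaled to CPM by TMM, a trimmed mean of log ratios. Ratios have exact conditional intervals and shares exact Clopper-Pearson intervals, at 95%; both cover counting error only, and cells of 1 library are not replicates. Genes counted as measured at a mean of 25 CPM (in both libraries for Ppy-leading over Gcg-leading cells).

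Named genes were fixed markers, hormones and Spop, the first 14 on each side for Ppy-leading over Gcg-leading cells and the first 10 on each side between genotypes, in the order of how far the interval stayed from no difference, and up to 4 per list. Gcg, Mafa and Ins1, at least 5 times higher in another gate, stayed out of the ranking between genotypes. The members, the 26 gene lists and the limits were chosen with earlier results of these data known. Some genes that the rule names are not reported here. Further genes of the lists and some values set beside them were picked after their values were seen.

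Cells with at least 3 mesenchymal or endothelial marker UMIs and no gate served as background. The neighbour maps used 2000 variable genes, 30 components and 15 neighbours. Scrublet, run through scanpy, called 0 cells where 8.03% and 6.21% were expected in the SpopβKO and Spop fl/fl libraries, so it did not work and doublets remain. Positions came by identifier from GENCODE mouse release 21. The ratio and counting steps were tested on simulated data. Tools were Python 3.11.15, numpy 2.4.6, scipy 1.17.1, pandas 2.3.3, scanpy 1.11.5, scikit-learn 1.9.0 and matplotlib 3.10.9. Alternatives changed the gate limit and margin, the cell filters, the scaling, the weighting, the filter on low values, the thinning and the neighbour map.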

Additional observations from a re-analysis of the deposited data

Results flagged for a closer look

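Some barcodes outside the kept cells also met the hormone rule. In the SpopβKO library 4 barcodes, and in the Spop fl/fl library 21, were removed for too few genes or too many mitochondrial UMIs although Ppy made up at least 2% of their UMIs and led the other hormones. Their median depths were 1163 UMIs in SpopβKO and 1562 UMIs in Spop fl/fl. They enter no value above.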

How the results depend on the processing

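No paired analysis was possible because there is 1 library per genotype and the labels give no replicate numbers. The share of Ppy-leading cells among kept cells was 1.29% in SpopβKO and 1.75% in Spop fl/fl at a 5% Ppy limit, 1.05% and 1.43% where Ppy had to be 3 times each other hormone, 0.577% and 0.861% with no other hormone at 1%, and 2.18% and 2.54% at 8000 to 30000 UMIs; the last 2 settings were chosen after seeing the data. Cells with Gcg at 1% were 14% and 27.6% under the 3-times rule and, by construction, 0% and 0% with no other hormone. Cells with a Gcg UMI were 90.7% of Spop fl/fl under the 3-times rule, 86.6% and 97.8% thinned to 5000 UMIs, 94.9% and 100% unthinned. They were 49% and 74.6% with no other hormone, and 92.9% of Spop fl/fl at 8000 to 30000 UMIs. Genes higher and lower than in Gcg-leading cells numbered 26 and 37 under the 3-times rule, 85 and 116 without the low-value filter, and 27 and 44 with no other hormone, the last keeping 16 of 17 and 24 of 24. Between genotypes the higher genes were 144 with equal weights, of which 55 of 91 were kept, and 357 unfiltered. The lower ones were 162 under the 3-times rule, 340 unfiltered, 191 with no other hormone and 167 at 8000 to 30000 UMIs. With no other hormone 26 of the 91 higher and 49 of the 105 lower genes were kept. CPM without TMM shifted the median ratio by 0.05 between genotypes, and by -0.08 in SpopβKO and -0.12 in Spop fl/fl for Ppy- over Gcg-leading cells. Majority neighbours were 21.7% in SpopβKO with 30 neighbours, and 73.9% and 84.6% with all genes. The cause was not tested. No value called at first changed its sign. Sst between genotypes, at -0.22 and not called, passed as lower at a 5% Ppy limit (-1.58) and under the 3-times rule (-1.30). It passed as higher at 8000 to 30000 UMIs (0.98), so no direction is given for it. Of the recomputed main values, 69 stayed within their limits and 35 moved outside them.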

Other observations

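Cells in which Ppy reached 2% of UMIs but Gcg led held little Pyy. Their median Pyy share was 0.0855% over 66 cells of SpopβKO and 0.140% over 49 cells of Spop fl/fl, while Ppy-leading cells had medians of 1.87% and 1.60%. Cells with as much Ppy but led by insulin lay between, at 0.578% over 38 cells of SpopβKO and 0.675% over 21 cells of Spop fl/fl. No test of these values was possible with 1 library per genotype.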
